A study of Homo sapiens with 2 samples.

Results

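The interleukin-1 family genes examined here are 10 genes, found by their symbols among the 21382 genes of an RNA-Seq table of 2 human prostate cancer cell lines, RC77 T/E and MDA PCa 2b, both untreated. They are the ligands IL1A, IL1B, IL18, IL33 and IL36G, the receptor antagonist IL1RN, and the receptor chains IL1R1, IL1R2, IL1RAP and IL1RL1. Total RNA of each cell line gave 1 paired-end, strand-preserving library, so replicate errors are lacking for all values and all differences. MDA PCa 2b cells were grown in a Ham's F-12 based medium with serum, cholera toxin, epidermal growth factor, hydrocortisone, insulin, selenite and phosphoethanolamine. RC77 T/E cells were grown in a serum-free keratinocyte medium that contained bovine pituitary extract and epidermal growth factor. Cell line and medium cannot be told apart in this design, and each line is a single established culture rather than a set of tumours.

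The interleukin-1 family is a group of inflammatory ligands that alert epithelium and immune cells to damage or infection. IL-1α and IL-1β bind the same receptor, IL1R1, which then recruits the accessory chain IL1RAP and signals through MYD88 to NF-κB, whereas the antagonist IL1RN occupies IL1R1 without recruiting the accessory chain and IL1R2 captures ligand without signaling. IL-1β and IL-18 are made as precursors that the protease caspase-1 cuts within an inflammasome, so transcript levels do not give the amount of active cytokine.

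Expression is given as TPM, the authors' measure of transcript abundance scaled for gene length and library total. It keeps no read number, so the depth behind each value is unknown. In the deposited table most values of 1 TPM or more had lost their decimal mark. The mark was put back from the deposited mean and standard error of both lines, which left 1 possible value for 6 of the 10 genes. For IL1RN, IL18, IL1R1 and IL1RAP more than 1 position was possible, and all values that the digits allow are given. These values differ by factors of 10 or 100, while for IL1RN, IL1R1 and IL1RAP the ratio between the lines is the same at each of them. IL18 is listed at 0 in MDA PCa 2b and has no such ratio. The log2 ratio sets RC77 T/E over MDA PCa 2b after adding 1 TPM to each, with open marks at their lowest position, and it understates the difference for low genes. Its median over the 11624 genes whose mean reached 1 TPM was -0.15, so a value of 0 lay slightly to the RC77 T/E side of the typical gene.

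Of the 10 genes, 7 were at 1 TPM or more in RC77 T/E cells but 3 in MDA PCa 2b cells. The 3 genes, IL1RN, IL1R1 and IL1RAP, reached that level in both lines, and IL1A, IL1B, IL18 and IL36G are listed at that level in RC77 T/E alone. For IL18 this rests on an exact 0 in MDA PCa 2b, which may be a failed estimate. Among all 12126 genes at 1 TPM or more in a line, 12.5% reached it in RC77 T/E alone, compared with these 4 of 7, and without genes listed at 0 in a line the share was 10.9%, compared with 3 of 6. A mean of at least 1 TPM was reached by 7 genes, of which 6 were higher in RC77 T/E by 2-fold or more, beside 19.4% of all genes at that mean. Without genes listed at 0 in a line, which leaves out IL18, 5 of 6 were higher by as much, beside 18.2% of all such genes. Only IL1R1 was higher in MDA PCa 2b to that extent, beside 20.0% of all such genes. The plot of expression by gene shows both lines for every member.

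**Figure D1:**
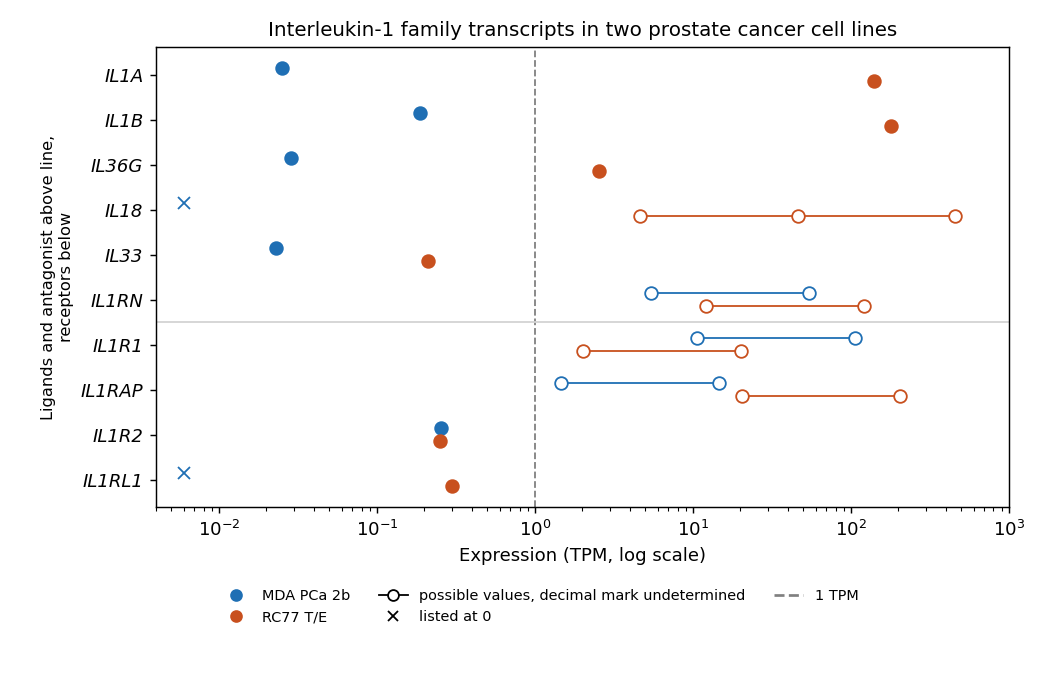
Expression of the 10 interleukin-1 family genes in RC77 T/E (orange) and MDA PCa 2b (blue) cells, 1 library each, in TPM on a log scale, with ligands and antagonist above the grey line and receptors below it. Joined open circles are the values possible where the decimal mark is undetermined, crosses at the left edge are genes listed at 0, and the dashed line is 1 TPM. IL1A and IL1B lie at 140.0 and 179 TPM in RC77 T/E and under 1 TPM in MDA PCa 2b.

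IL1A (ENSG00000115008) encodes IL-1α, which is active without caspase cleavage and is released by damaged epithelial cells. It was at 140.0 TPM in RC77 T/E against 0.0251 TPM in MDA PCa 2b. IL1B (ENSG00000125538), which encodes the secreted IL-1β, was at 179 TPM in RC77 T/E against 0.187 TPM in MDA PCa 2b. Both genes were thus far above 1 TPM in one line and below it in the other, with a decimal mark fixed by the table. The log2 ratio was 7.10 for IL1A and 7.25 for IL1B. Without the added TPM, IL1A was 5576-fold and IL1B 959.5-fold higher in RC77 T/E, and these folds rest on MDA PCa 2b values near 0 whose read number is unknown. Of the 11624 genes whose mean reached 1 TPM, 69 had a larger log2 ratio than IL1A and 66 a larger one than IL1B with open marks at their lowest position. With all marks at their highest position, these numbers were 204 and 200. The sum of both ligands was 319 TPM in RC77 T/E against 0.212 TPM in MDA PCa 2b. IL1B exceeded IL1A 7.44-fold in MDA PCa 2b, compared with 1.28-fold in RC77 T/E.

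IL36G (ENSG00000136688) encodes IL-36γ, a ligand of skin and other barrier epithelia. It was at 2.55 TPM in RC77 T/E against 0.0286 TPM in MDA PCa 2b, a log2 ratio of 1.79. IL18 (ENSG00000150782), whose product is another caspase-1 substrate, is listed at 0 in MDA PCa 2b and was at 4.60, 46.0 or 459.8 TPM in RC77 T/E cells. No fold is given for IL18 because a listed 0 need not mean that the transcript is absent. EEF1A1, a translation factor gene that every cell uses, is also listed at 0 in MDA PCa 2b and was at 2393 TPM in RC77 T/E. IL33 (ENSG00000137033), which encodes a nuclear cytokine of epithelium and endothelium, was at 0.212 TPM in RC77 T/E against 0.0231 TPM in MDA PCa 2b. IL33 therefore stayed under 1 TPM in both lines.

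The antagonist gene IL1RN (ENSG00000136689) was detected in both lines, at 12.2 or 122 TPM in RC77 T/E against 5.46 or 54.6 TPM in MDA PCa 2b. IL1RN was 2.23-fold higher in RC77 T/E, and its log2 ratio of 1.03 lay just past the 2-fold line. It moved in the same direction as IL1A and IL1B but by a far smaller ratio. In MDA PCa 2b the IL1RN transcript exceeded the sum of IL1A and IL1B between 25.8-fold and 258-fold, depending on its decimal mark. That sum was only 0.212 TPM, and the read number behind it is unknown. In RC77 T/E the sum of IL1A and IL1B exceeded IL1RN between 2.62-fold and 26.2-fold. Agonist and antagonist transcripts thus stood in opposite order in the 2 lines at every possible value of IL1RN.

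**Figure D2:**
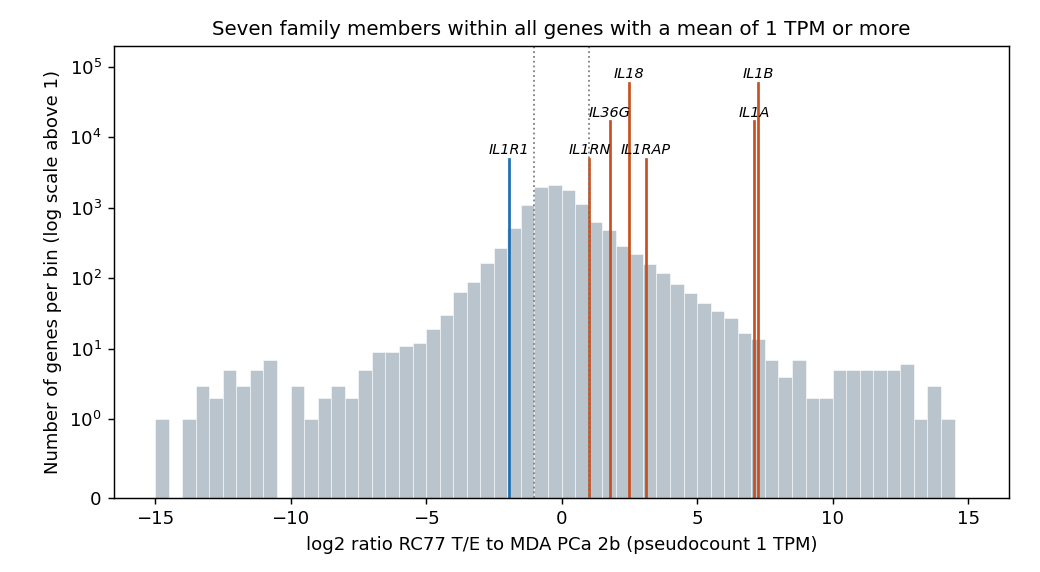
Number of genes (y axis, log scale above 1) in bins of the log2 ratio (RC77 T/E over MDA PCa 2b, pseudocount 1 TPM) on the x axis, for the 11624 genes whose mean reached 1 TPM, and the 7 interleukin-1 family genes among them as vertical lines whose height carries no value. Dotted lines mark 2-fold. IL1A at 7.10 and IL1B at 7.25 lie in the right tail, and IL1R1 at -1.93 is the only one of the 7 to the left of 0.

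IL1R1 (ENSG00000115594) encodes the signaling receptor of IL-1α and IL-1β. It was at 2.03 or 20.3 TPM in RC77 T/E against 10.6 or 106 TPM in MDA PCa 2b, which is 5.21-fold higher in MDA PCa 2b, with a log2 ratio of -1.93. The line with the higher ligand transcripts thus had the lower IL1R1 transcript. IL1RAP (ENSG00000196083), the accessory chain shared by the receptors of IL-1, IL-33 and IL-36, was at 20.3 or 203 TPM in RC77 T/E against 1.46 or 14.6 TPM in MDA PCa 2b. IL1RAP was 13.9-fold higher in RC77 T/E, with a log2 ratio of 3.12, so both chains of the IL-1 receptor were transcribed in both lines and differed in opposite directions. Depending on both decimal marks, the ratio of IL1RAP to IL1R1 was 1.00 to 100.4 in RC77 T/E, compared with 0.0138 to 1.38 in MDA PCa 2b.

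The decoy receptor gene IL1R2 (ENSG00000115590) was at 0.249 TPM in RC77 T/E against 0.254 TPM in MDA PCa 2b, nearly the same low value. IL1R1 exceeded it 41.7-fold to 417-fold in MDA PCa 2b, compared with 8.12-fold to 81.2-fold in RC77 T/E. IL1RL1 (ENSG00000115602), which encodes the IL-33 receptor, is listed at 0 in MDA PCa 2b and was at 0.298 TPM in RC77 T/E cells. Neither IL1RL1 nor its ligand IL33 reached 1 TPM in a line. IL1RL1 overlaps IL18R1 on the same strand, so reads in their shared part cannot be assigned by strand.

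Of the 10 genes, 7 are listed on chromosome 2 of GRCh38, in a ligand cluster and a receptor cluster. The ligand cluster spans 360 kb from 112773925 to 113134016 and holds IL1A (112773925 to 112784493), IL1B (112829751 to 112836816), IL36G (112973203 to 112985658) and IL1RN (113099315 to 113134016). All 9 loci listed in this interval belong to the family, and 4 reached 1 TPM in RC77 T/E but 2 in MDA PCa 2b. The neighbours IL1A and IL1B stood highest in RC77 T/E, whereas IL36A and IL36B between IL36G and IL1RN are listed at 0 in both lines. The receptor cluster spans 461 kb from 101991960 to 102452565 and holds IL1R2 (101991960 to 102028544), IL1R1 (102064544 to 102179874) and IL1RL1 (102311502 to 102352037). Here 3 of 7 loci were at 1 TPM or more in RC77 T/E, compared with 1, IL1R1, in MDA PCa 2b. The next gene after IL1R1, IL1RL2, is listed at 0 in MDA PCa 2b, so no direction is given for it. The other 3 genes are IL18 on chromosome 11 (112143253 to 112164096), IL33 on chromosome 9 (6215786 to 6257983) and IL1RAP on chromosome 3 (190514051 to 190659750).

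**Figure D3:**
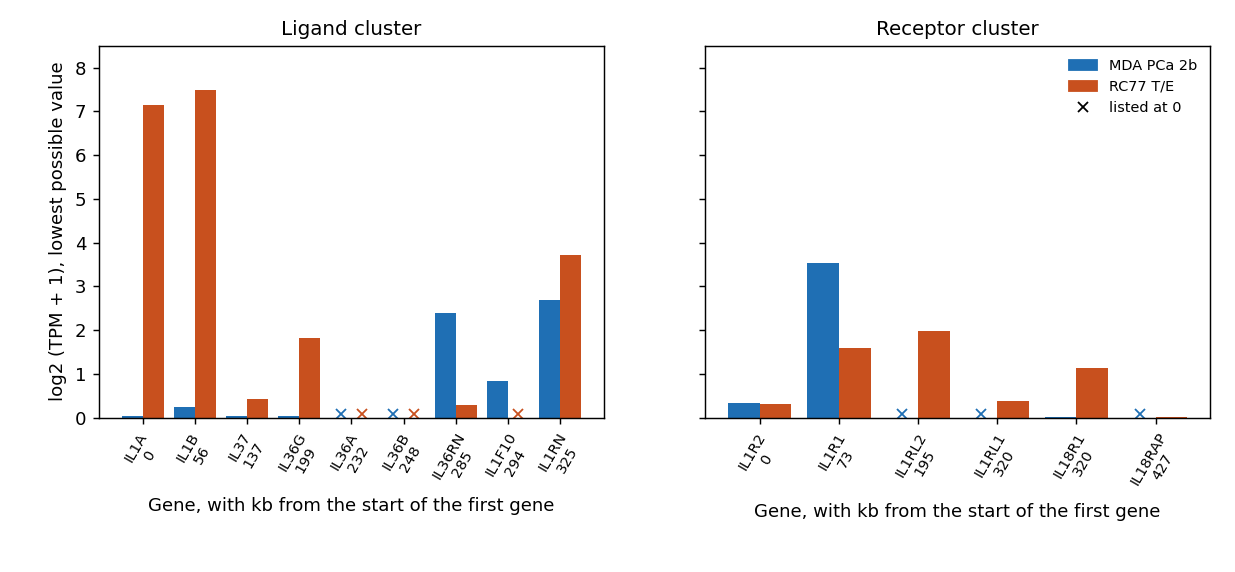
Expression of the interleukin-1 family genes in their order along the ligand cluster (left) and the receptor cluster (right) of chromosome 2, as log2 of TPM plus 1 at the lowest possible value, in RC77 T/E (orange) and MDA PCa 2b (blue) cells, 1 library each. The number under each gene is its distance in kb from the start of the first gene, and crosses mark genes listed at 0. IL1A and IL1B have the tallest bars, both in RC77 T/E, and IL1R1 is higher in MDA PCa 2b.

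The 250 bases before the RefSeq transcription start (GRCh38.p14) are shown for the 3 ligands of the cluster that were past 1 TPM in RC77 T/E alone and for the antagonist, which was transcribed in both lines. The strand is that of the gene, the sequence runs 5′ to 3′ and ends at the base before the start, and capitals mark motif matches. The motifs searched, on both strands, were TGANTCA for the factor AP-1, the motif of NF-κB, and TATAAA for the core promoter box of that name, here called TATA. For IL1RN, which has 3 RefSeq starts in the table used, the one farthest upstream is shown, and for IL1A, which has 2, the one that adjoins the listed end of the gene. The IL1RN and IL36G windows lie inside the listed intervals of these genes, and the IL1B window overlaps the listed end of its gene.
IL1A (chr2:112784494-112784743, minus strand): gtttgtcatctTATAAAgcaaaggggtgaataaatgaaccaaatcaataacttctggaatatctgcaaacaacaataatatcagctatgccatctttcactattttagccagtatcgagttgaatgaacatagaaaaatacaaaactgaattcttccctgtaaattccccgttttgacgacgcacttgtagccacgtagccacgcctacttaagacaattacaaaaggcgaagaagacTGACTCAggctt
IL1B (chr2:112836780-112837029, minus strand): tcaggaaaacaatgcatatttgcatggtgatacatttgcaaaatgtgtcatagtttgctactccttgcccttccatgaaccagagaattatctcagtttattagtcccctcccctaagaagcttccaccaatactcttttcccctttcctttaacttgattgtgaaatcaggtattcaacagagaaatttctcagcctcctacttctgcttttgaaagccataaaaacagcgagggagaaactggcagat
IL36G (chr2:112977756-112978005, plus strand): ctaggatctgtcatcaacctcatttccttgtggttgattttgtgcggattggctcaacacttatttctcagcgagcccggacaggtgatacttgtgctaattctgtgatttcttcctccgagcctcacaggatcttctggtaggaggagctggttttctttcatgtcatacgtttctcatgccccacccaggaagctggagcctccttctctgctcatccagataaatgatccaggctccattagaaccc
IL1RN (chr2:113117721-113117970, plus strand): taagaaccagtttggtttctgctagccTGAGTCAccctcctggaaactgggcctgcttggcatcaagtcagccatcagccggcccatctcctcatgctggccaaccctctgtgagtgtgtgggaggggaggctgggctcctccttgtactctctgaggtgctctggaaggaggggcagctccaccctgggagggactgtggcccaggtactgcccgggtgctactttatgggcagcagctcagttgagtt
An AP-1 match lay 12 bases before the IL1A start and 223 bases before the IL1RN start, and the IL1A window also held a TATA match 239 bases before the start. No match to the 3 motifs was present in the IL1B and IL36G windows. Over the 18 promoters of the 9 members with an entry, 4 held an AP-1 match (in IL1A, IL1RN and IL1RL1), 1 an NF-κB match (in IL1R2) and 5 a TATA match. Some windows of the same gene overlap, and the 2 of IL1A share 1 AP-1 match. These counts are therefore not of separate sequences. Among all 34943 promoters of the same length, 6.59% held an AP-1 match, 9.95% an NF-κB match and 10.8% a TATA match. A match describes the letters in this window and does not show that a factor binds there.

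The remaining family genes differed in both directions. Of the 12 analysed, 4 had a mean that reached 1 TPM. Of these 4, 2 were at least 2-fold higher in each line, IL1RL2 through a listed 0. Among all genes at that mean, 19.4% were that much higher in RC77 T/E, while MDA PCa 2b was the higher line for 20.0%. IL36RN, the antagonist of the IL-36 receptor, was at 0.228 TPM in RC77 T/E against 4.23 TPM in MDA PCa 2b, a log2 ratio of -2.09. It exceeded its agonist IL36G 148-fold in MDA PCa 2b, whereas IL36G exceeded IL36RN 11.2-fold in RC77 T/E. These folds rest on low values whose read number is unknown, IL36G at 0.0286 TPM in MDA PCa 2b and IL36RN at 0.228 TPM in RC77 T/E. IL1RL2, the receptor chain for IL-36, is listed at 0 in MDA PCa 2b and was at 2.95, 29.5 or 295 TPM in RC77 T/E cells. The IL-36 agonist and its receptor chain were thus both past 1 TPM in RC77 T/E, where the antagonist was not, and the 0 of IL1RL2 in MDA PCa 2b may be a failed estimate. SIGIRR, an inhibitory receptor of the family, was at 11.9 TPM in RC77 T/E against 26.4 TPM in MDA PCa 2b. IL18BP, which binds and neutralises IL-18, was 2.74-fold higher in RC77 T/E, at 4.31 TPM against 1.57 TPM, or at 10 or 100 times both values. It overlaps NUMA1 on the opposite strand. IL18R1, the ligand-binding chain for IL-18, was at 1.198 TPM in RC77 T/E against 0.0111 TPM in MDA PCa 2b.

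Processing and release of the cytokines involves proteases, inflammasome sensors and a pore. Of 15 analysed, 8 had a mean that reached 1 TPM, of which 4 were higher in RC77 T/E by 2-fold or more and 0 were lower by as much, with a median log2 ratio of 1.19, beside 19.4% and 20.0% of all genes at that mean. Without CASP1, which is listed at 0 in MDA PCa 2b, 3 of 7 were higher. CASP1, which encodes caspase-1, was at 17.4 or 174 TPM in RC77 T/E cells. PYCARD, the adaptor that joins caspase-1 to inflammasome sensors, was at 36.4 TPM in RC77 T/E against 0.0487 TPM in MDA PCa 2b. The protease needed for IL-1β and IL-18 and its adaptor were thus past 1 TPM in the same line as IL1B and IL18. The sensor gene NLRP1 was 3.81-fold higher in RC77 T/E, and CAPN2, which encodes a subunit of the calpains that cleave IL-1α, 4.72-fold. NLRP3, the best known sensor, stayed at 0.713 TPM in RC77 T/E, with 0.0112 TPM in MDA PCa 2b. GSDMD, which encodes the pore through which IL-1β leaves the cell, went the other way. Its log2 ratio was -0.93 at the lowest and -1.27 at the highest position of the decimal mark, where it is past 2-fold, and without the added TPM it was 2.52-fold higher in MDA PCa 2b. CASP1 has a close copy, CARD16, and how reads were divided between them is not stated.

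The signaling genes downstream of the receptor mostly lay within 2-fold with 1 TPM added. All 17 analysed had a mean that reached 1 TPM, 14 were within 2-fold, beside 60.7% of all genes at that mean, and the median log2 ratio was 0.08. MYD88, the adaptor of the IL-1 receptor, was at 9.00 TPM in RC77 T/E against 20.7 TPM in MDA PCa 2b. TOLLIP, a regulator of the receptor complex, was 2.12-fold higher in MDA PCa 2b. IRAK3, a kinase family member that restrains the pathway, was at 4.55 TPM in RC77 T/E against 0.00486 TPM in MDA PCa 2b. With open marks at their highest position IRAK4, another kinase of the receptor complex, was also past 2-fold, at a log2 ratio of -1.05. The level of 1 TPM was reached by 17 of these genes in RC77 T/E, compared with 16 in MDA PCa 2b.

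Genes that IL-1 is known to induce differed in both directions between the lines. Of 21 analysed, 18 had a mean that reached 1 TPM, of which 12 were higher in RC77 T/E by 2-fold or more and 2 were lower by as much, with a median log2 ratio of 2.25. Over all genes at that mean, 19.4% were higher and 20.0% lower to that extent, with a median of -0.15. Leaving out CSF2, which is listed at 0 in MDA PCa 2b, 11 of 17 were higher. CSF3, which encodes the granulocyte growth factor G-CSF, was at 119 TPM in RC77 T/E against 0.00834 TPM in MDA PCa 2b. The chemokine gene CCL20 was at 40.2 TPM in RC77 T/E against 0.157 TPM in MDA PCa 2b. The adhesion molecule gene ICAM1 was 31.8-fold higher in RC77 T/E, and TNFAIP3, which restrains NF-κB, 8.95-fold. CXCL2, PTGS2 and LIF had log2 ratios of 2.88, 2.78 and 2.47, and CSF2 was at 4.12 or 41.2 TPM in RC77 T/E cells. The apoptosis inhibitor gene BIRC3 was 4.43-fold and the acute phase gene SAA2 2.64-fold higher in MDA PCa 2b, and these 2 genes were named after their values were seen. IL6 stayed under 1 TPM in both lines, at 0.146 TPM in RC77 T/E against 0.0264 TPM in MDA PCa 2b. NFKBIZ was 2.09-fold higher in MDA PCa 2b without the added TPM and just short of 2-fold with it, and CXCL8 was higher in RC77 T/E by 1.60-fold. SAA1, a close copy of SAA2, was 4.20-fold higher in RC77 T/E, opposite to SAA2, and it was also named after its value was seen. SAA1, SAA2 and the CXCL genes have close copies, and their values are uncertain to that extent.

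**Figure D4:**
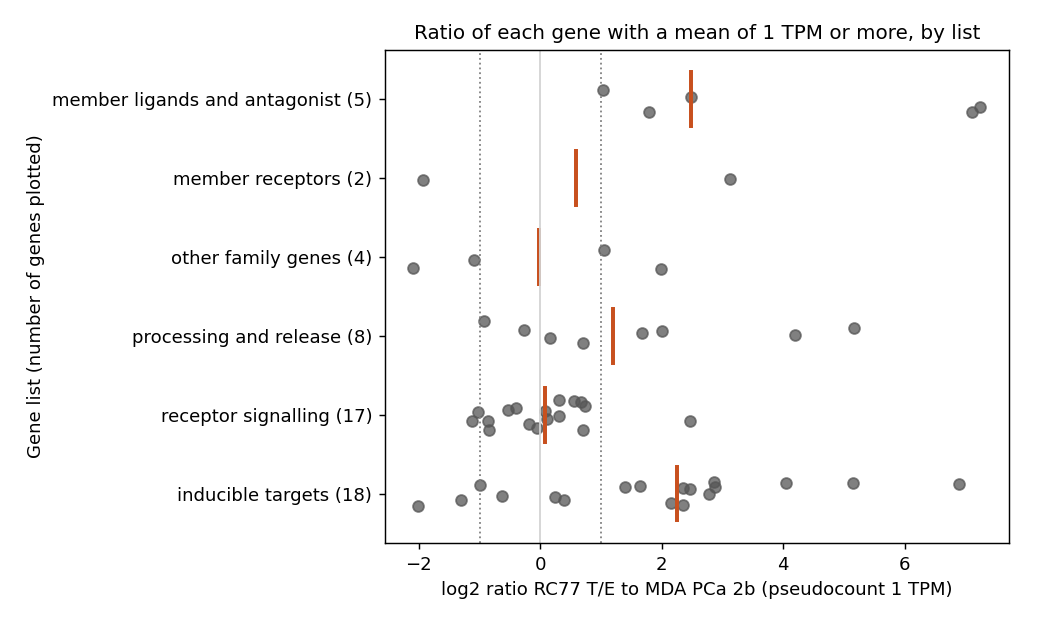
The log2 ratio (RC77 T/E over MDA PCa 2b, pseudocount 1 TPM) on the x axis for each gene whose mean reached 1 TPM, by gene list (y axis, with the number of genes plotted). Points are genes, spread vertically for legibility, orange bars are medians and dotted lines mark 2-fold. Inducible targets have a median of 2.25 and receptor signalling genes one of 0.08.

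The label of both lines, prostate cancer cells, was checked against marker lists. All 4 epithelial markers were at 1 TPM or more in both lines. Of 6 luminal prostate markers, 6 reached that level in MDA PCa 2b but 1 in RC77 T/E, where KLK3, which encodes prostate-specific antigen, is listed at 0. All 5 basal markers were at 1 TPM or more in RC77 T/E, as were 3 in MDA PCa 2b, with KRT5 at 4027 TPM in RC77 T/E. KRT14 was at 3255 TPM in RC77 T/E against 37.4 TPM in MDA PCa 2b. The ligand genes IL1A and IL1B were therefore high in the line where all 5 basal markers reached 1 TPM. The part of the marker difference in that of the ligands was not tested. Leukocytes also transcribe IL1B. Of 10 leukocyte markers, 0 reached 1 TPM in MDA PCa 2b and 2, CD14 at 4.92 TPM and CD68 at 37.9 TPM, in RC77 T/E, with sums of 1.40 and 43.2 TPM. In RC77 T/E 5 of the 10 are listed at 0, as are 3 in MDA PCa 2b, and the part of these markers in the IL1B level was not tested. Of 7 fibroblast and endothelial markers, 1 reached 1 TPM, COL1A1 at 8.24 TPM in RC77 T/E against 0.554 TPM in MDA PCa 2b.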

How the data were processed

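RNA-Seq was performed by the authors on total RNA of untreated cells of RC77 T/E and MDA PCa 2b, 1 library each. The submitters' processing notes name CASAVA, FastQC 0.11.9, Trimmomatic 0.38, Salmon 1.2.0 and GRCh38 without roles, and the identifiers have the form that Cufflinks gives. The authors deposited TPM per locus with the mean and standard error of both lines. No read counts were used, so depth is unknown and no interval is given.

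In 10361 (MDA PCa 2b) and 11082 (RC77 T/E) cells of the deposited TPM columns the decimal mark was missing. The design had assumed plain TPM. Marks with 1 to 3 digits on their left and 3 or more on their right were kept where mean and standard error matched, which left 1 position in 16284 of 22791 rows. In 5000 simulated rows, 3820 had 1 position, the true one in 3820, and the remaining 1180 included it. These rows held only positive values and were written under the same rules that the search assumes. They therefore check the search itself and not the marks of the deposited table. Where several fit, the lowest was used for ratios. The sum of TPM lay between 751125 and 2416350 in MDA PCa 2b and between 682469 and 2140330 in RC77 T/E, so library totals are not determined. Loci of a symbol were summed.

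No test was possible with 1 library per line. The members and gene lists were chosen with earlier results of these data known. Named are all members, other family genes at 1 TPM or more in a line, and in each further list up to 8 genes past 2-fold, with further genes of the lists added after their values were seen. Of the luminal markers, the basal markers and the genes used by every cell, only some past 2-fold are named. The genes used by every cell were also chosen after values were seen. GSDME and TAB1 were not analysed here. Strands and overlaps are from GENCODE release 29, on the build of the table. Whether counting used the strand is not stated. IL1R1, IL18 and IL36G overlap genes on the opposite strand, and IL1RAP overlaps noncoding genes on its own. Promoters are from RefSeq. IL18 was not matched. Python 3.11.15, numpy 2.4.6, pandas 2.3.3 and matplotlib 3.10.9 were used.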

Additional observations from a re-analysis of the deposited data

How the results depend on the processing

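No paired analysis was possible because there was only 1 library for each of the lines. The 2-fold counts of 6 members for RC77 T/E against 1 for MDA PCa 2b were the same with a pseudocount of 0.1 TPM, upper quartile scaling, median centring, inclusion of all genes above 0, the highest decimal position and the largest locus. Leaving out genes listed at 0 in a line, an alternative chosen after seeing the data, gave 5 and 1. With a threshold of 5 TPM and open marks at their lowest position, 4 members in place of 7 reached the level in RC77 T/E. With a pseudocount of 0.1 TPM the log2 ratio of IL18 was 5.55 and that of IL36G 4.36, and at the highest decimal position that of IL18 was 8.85. IL1R2, under 1 TPM in both lines, had a log2 ratio of 0.15 after centring and 0.03 after upper quartile scaling, so its sign depends on the scaling. Depth, biological variation and the effect of the media cannot be assessed from these libraries.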
